A study of Homo sapiens with 5 samples.

Results

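The 10 genes described here encode collagen chains that build fibrils, basement membrane networks and the filaments attached to them: COL1A1, COL1A2, COL3A1, COL4A1, COL4A2, COL5A1, COL5A2, COL6A1, COL6A3 and COL12A1. They were chosen by name, with earlier results of these data known, from among 17651 genes that could be named in both value tables. All 10 were measured in both. Each was read by 1 probe set with a single gene symbol in each table. The genes are not all fibrillar or network collagens in the strict sense, since type VI collagen forms beaded filaments and type XII collagen sits on the surface of fibrils.

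Collagens are secreted proteins in which 3 chains wind into a triple helix. The chains of types I, III and V assemble into the fibrils of connective tissue, and type V starts new fibrils. The chains of type IV assemble into the sheet under epithelia, the basement membrane, which breast epithelial cells make and rest on. Types I and III are made in breast mostly by fibroblasts, and types VI and XII link fibrils to cells and to each other.

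RNA came from monolayers of MCF12A, an established epithelial cell line from human breast that forms no tumours, fed with horse serum, epidermal growth factor, hydrocortisone, insulin and cholera toxin. The groups were cells kept 4 weeks in 2.5% ethanol, cells kept 4 weeks in 1% acetaldehyde, the product of ethanol oxidation, and untreated cells, all in 1 table. A second table held a soft agar clone and its control. The clone grew out of ethanol-exposed cells plated in soft agar, where growth needs no anchorage, and it is 1 clone, which the labels describe as exposed to ethanol again on plates before RNA was taken. Its sample label gives 2.5% ethanol for 4 weeks, whereas the design text of the series gives its ethanol in mM, and its control is labelled both as unexposed and as selected on soft agar. The labels assign one array design to exposures of 1 week and another to those of 4 weeks, yet the tables, all of whose exposures are labelled 4 weeks, come from both designs. Each group was 1 array, so no value below has an error or a test, and precision is limited by that number. The tables were normalised apart, so every difference is within a table. Values are RMA intensities on a linear scale, and differences are on the log2 scale. A gene was counted as higher or lower at 2-fold or more, where the brighter of its arrays reached the median intensity of its table, called the floor here, 70.2 in the table of 3 arrays and 92.0 in the clone's.

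As a check of the cell label, 7 genes among 10 listed markers of mammary epithelium were read, and all 7 lay above the floor in untreated cells and in the clone's control. Their summed intensity was 8674 in ethanol and 13330 in acetaldehyde, against 12836 in untreated cells, and 10427 in the clone against 25040 in its control. KRT5 and KRT8, the brightest of them in ethanol, carry most of that sum there. At 2-fold, 4 of the 7 were lower and 1, KRT8, was higher in ethanol, none differed in acetaldehyde, and 5 were lower in the clone. Among all genes past the floor, 2.44% were lower and 2.63% higher in ethanol, and 0.0536% and 1.03% in acetaldehyde. In the clone 5.83% of genes were lower and 14.7% higher. CDH1 (E-cadherin) had 117 in ethanol and 1262 in acetaldehyde, against 1114 in untreated cells, and 43.6 in the clone, under the floor, against 920 in its control. EPCAM, an epithelial adhesion molecule, had 85.3 in ethanol and 479 in acetaldehyde, against 613 in untreated cells, and 48.7 in the clone, also under the floor, against 378 in its control. KRT14, a basal keratin, was 5.79-fold lower in ethanol and 16.2-fold lower in the clone, and ITGB4, an integrin chain of basal cells, 2.99 and 5.12-fold lower. The collagen differences below stand beside these in the same arrays, and the part of one in the other was not tested. Of 17958 genes in the first table, 45.9% had the same value in ethanol and untreated cells, within 1e-06 on the log2 scale, and 51.8% in acetaldehyde and untreated cells. For the clone and its control the share was 0.706% of 18417 genes.

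The sequences before a few of these genes are shown because COL4A1 and COL4A2, whose chains join in 1 molecule, sit head to head on the genome and differed together below, while COL12A1 had the largest differences and COL6A3 none above the floor. RefSeq promoter entries of build GRCh38.p14 matched 5 of the 10 genes, COL4A1, COL4A2, COL5A1, COL6A3 and COL12A1. The first line is the whole stretch of 126 bases between the annotated starts of COL4A1, read on the minus strand, and COL4A2, read on the plus strand, at chr13:110307158-110307283 (plus strand). The others are the 250 bases before the start of COL12A1, chr6:75206054-75206303 (minus strand), and of COL6A3, chr2:237414165-237414414 (minus strand). Capitals mark matches on either strand to 6 short motifs. The letters searched were TATAAA for the TATA box and CCAAT for the CCAAT box. The GC box was searched as GGGCGG and the AP-1 motif as TGANTCA. The TEAD motif was GGAATG and the SMAD motif CAGACA.
COL4A1/COL4A2: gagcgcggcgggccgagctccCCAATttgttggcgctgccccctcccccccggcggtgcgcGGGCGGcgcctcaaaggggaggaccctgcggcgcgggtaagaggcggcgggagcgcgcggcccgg
COL12A1: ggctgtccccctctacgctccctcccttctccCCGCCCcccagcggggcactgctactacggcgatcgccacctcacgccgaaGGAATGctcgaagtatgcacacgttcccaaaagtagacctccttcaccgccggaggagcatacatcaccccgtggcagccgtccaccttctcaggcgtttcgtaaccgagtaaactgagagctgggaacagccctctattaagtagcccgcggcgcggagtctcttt
COL6A3: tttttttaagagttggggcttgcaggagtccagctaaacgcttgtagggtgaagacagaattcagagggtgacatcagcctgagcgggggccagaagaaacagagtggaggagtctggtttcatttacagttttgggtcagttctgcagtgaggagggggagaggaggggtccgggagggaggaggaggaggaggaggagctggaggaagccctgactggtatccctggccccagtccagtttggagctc
The stretch shared by COL4A1 and COL4A2 held 1 CCAAT and 1 GC box. In 126 bases before the start, these motifs occur in 21.1% and 34.6% of all 35116 promoter entries. The COL12A1 stretch held 1 GC box and 1 TEAD motif, found in 42.6% and 11.9% of all entries over 250 bases. None of the motifs was found in the COL6A3 stretch. The 250 bases before COL5A1, not printed here, held 2 GC boxes and none of the other motifs. Over 250 bases the TATA, CCAAT, AP-1 and SMAD motifs were found in 10.7%, 32.01%, 6.57% and 13.6% of entries. The marked letters overlap no other marked motif, and a match is a description of these letters, not a binding site.

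The collagens differed among themselves. In ethanol COL4A1, COL4A2, COL6A1 and COL12A1 were at least 2-fold higher than in untreated cells, and in acetaldehyde COL6A1 and COL12A1 were. The fibrillar genes stayed within 0.17 log2 units of untreated cells in both. In the clone COL1A1, COL3A1, COL4A1, COL4A2 and COL12A1 were at least 2-fold higher than in its control. No member was 2-fold lower in any comparison, and COL5A2 and COL6A3 stayed under the floor in all 5 arrays. The plot of intensity by array shows each of these values.

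**Figure D1:**
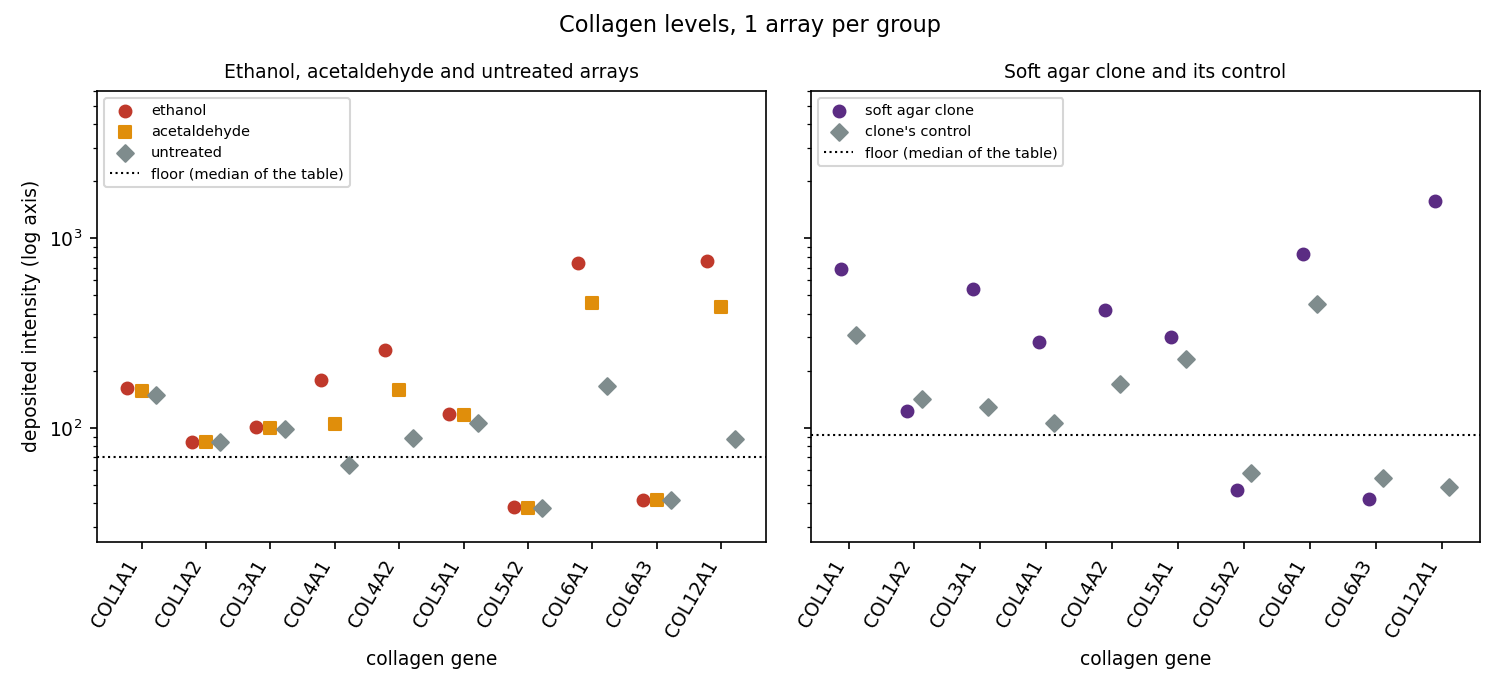
Deposited intensity (log axis) of the 10 collagen genes, 1 point per array, with ethanol, acetaldehyde and untreated cells on the left and the soft agar clone and its control on the right; the dotted line is the floor, the median of each table. COL12A1 stands at 754 in ethanol and 432 in acetaldehyde against 87.0 in untreated cells, and at 1579 in the clone against 48.8 in its control, while COL5A2 and COL6A3 lie under the line in every array.

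The fibrillar genes come first. COL1A1 encodes the main chain of type I collagen, the most abundant collagen of connective tissue. It had an intensity of 161 in ethanol and 156 in acetaldehyde, against 149.5 in untreated cells, and 687 in the clone against 310.3 in its control. It was thus 2.21-fold higher in the clone, a log2 difference of 1.15, and differed by 0.11 in ethanol and 0.06 in acetaldehyde. COL1A2 encodes the partner chain of the same molecule. It was listed at 83.9 in all 3 arrays of the first table, and at 123 in the clone against 142 in its control, a log2 difference of -0.20. The COL1A1 difference exceeded that of COL1A2 by 1.35 log2 units in the clone, by 0.11 in ethanol and by 0.06 in acetaldehyde.

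COL3A1 encodes the single chain of type III collagen, found with type I in stretchable tissue. It had 100.5 in ethanol and 100.01 in acetaldehyde, against 98.9 in untreated cells, so the 3 arrays were nearly level. In the clone it had 538 against 128 in its control, 4.19-fold higher, a log2 difference of 2.07. COL5A1 encodes a chain of type V collagen. It had 118 in ethanol and 117 in acetaldehyde, against 105 in untreated cells, and 302 in the clone against 231 in its control. These are log2 differences of 0.17, 0.15 and 0.39, the same sign each time and under 2-fold. COL5A2, its partner chain, had 38.2 in ethanol and 38.0 in both acetaldehyde and untreated cells, and 46.9 in the clone against 57.5 in its control. All of those values are under the floor, so no fold is given for it. COL5A2 is the neighbour of COL3A1 on chromosome 2, with no protein-coding gene between them, yet only COL3A1 was above the floor and higher in the clone.

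COL4A1 and COL4A2, the main chains of type IV collagen, had similar differences. COL4A1 had 179.5 in ethanol and 105 in acetaldehyde, against 64.0 in untreated cells, which is under the floor. That is at least 2.56-fold higher in ethanol, a log2 difference of 1.49, and at least 1.501-fold higher in acetaldehyde, a log2 difference of 0.72. COL4A2 had 259 in ethanol and 159 in acetaldehyde, against 88.9 in untreated cells, 2.91 and 1.79-fold higher, or 1.54 and 0.84 on the log2 scale. In the clone, COL4A1 had 282 against 106 in its control and COL4A2 had 417 against 170.3. Both were higher there, by 2.67 and 2.45-fold, or 1.42 and 1.29 on the log2 scale. The COL4A1 difference minus the COL4A2 difference was -0.05 in ethanol, -0.12 in acetaldehyde and 0.13 in the clone. The stretch of 126 bases shown above is all that separates the starts of this pair. Another type IV chain, COL4A5, had log2 differences of -0.11 in ethanol, 0.00 in acetaldehyde and 0.49 in the clone. COL4A5 and COL6A2 below are named as partners of members, after their values were seen.

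Type VI collagen needs COL6A1, COL6A2 and 1 more chain, most often COL6A3, and the genes of these chains differed from each other. COL6A1 had 743 in ethanol and 457 in acetaldehyde, against 165 in untreated cells, 4.49 and 2.76-fold higher, with log2 differences of 2.17 and 1.47. In the clone it had 827 against 449 in its control, a log2 difference of 0.88, which reached 1.05 and so 2-fold when the clone's differences were centred on the median of all probes, a step that put the median of all genes past the floor at 0.15 in place of -0.02. COL6A2, the next protein-coding gene on chromosome 21, had 365 in ethanol and 285 in acetaldehyde, against 212 in untreated cells, and 505 in the clone against 498 in its control. Its log2 differences of 0.79, 0.43 and 0.02 were all smaller than those of COL6A1, by 1.38, 1.04 and 0.86. COL6A3 was listed at 41.5 in all 3 arrays of the first table, and at 42.2 in the clone against 54.2 in its control. All are under the floor.

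COL12A1, the fibril-associated chain of type XII collagen, differed more than any other member in all 3 comparisons with a control. It had 754 in ethanol and 432 in acetaldehyde, against 87.0 in untreated cells, 8.66 and 4.97-fold higher, or 3.11 and 2.31 on the log2 scale. In the clone it had 1579 against 48.8 in its control, a value under the floor, which makes it at least 17.2-fold higher, with a log2 difference of 5.02. Counted from the highest log2 difference among all genes past the floor, it took place 20 of 11264 in ethanol, 19 of 11194 in acetaldehyde and 12 of 12262 in the clone. COL6A1 took places 70, 64 and 2123 in the same comparisons. The places of COL4A1 were 153, 181 and 977, and those of COL4A2 were 142, 149 and 1202.

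**Figure D2:**
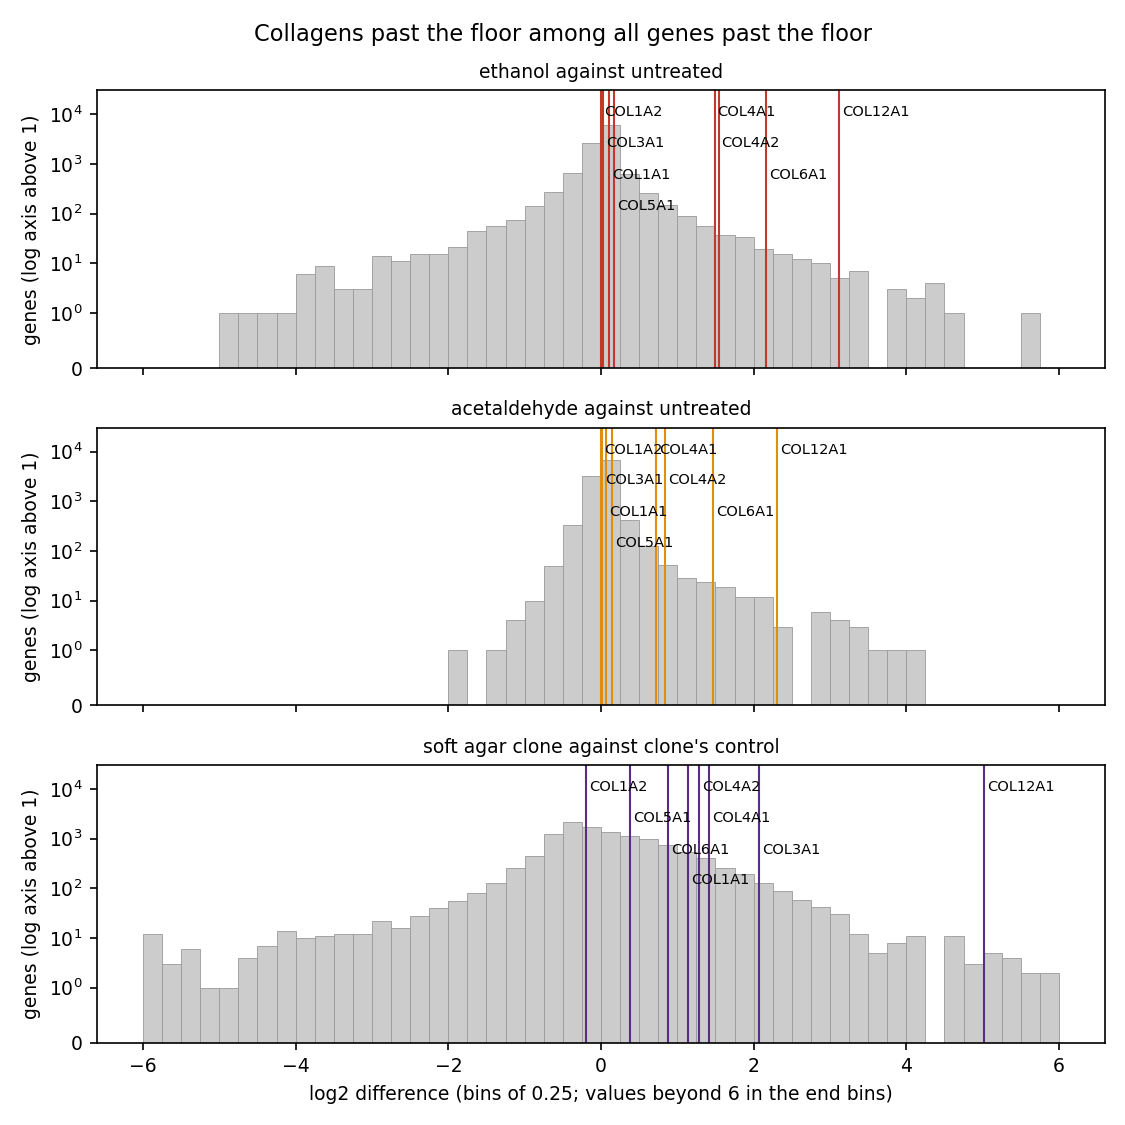
Histograms of the log2 difference of all genes past the floor in each comparison with a control (number of genes, log axis above 1, bins of 0.25), with a line at each collagen gene past the floor. COL12A1 lies far to the right each time, at 3.11, 2.31 and 5.02, whereas COL1A2 lies at or near 0.

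The members and the gene lists below were chosen with earlier results of these data known. The shares of all genes are therefore given for description and are no test of an excess. Set against all genes, 4 of the 10 members were at least 2-fold higher in ethanol, COL4A1, COL4A2, COL6A1 and COL12A1, where 2.63% of 11264 genes past the floor were. In acetaldehyde 2 were, COL6A1 and COL12A1, against 1.03% of 11194 genes. In the clone 5 were, COL1A1, COL3A1, COL4A1, COL4A2 and COL12A1, against 14.7% of 12262 genes. None was 2-fold lower, where 2.44%, 0.0536% and 5.83% of genes were in ethanol, acetaldehyde and the clone. In each comparison 8 members passed the floor, COL4A1 in ethanol and acetaldehyde and COL12A1 in the clone only through the array in which they were high. Over all 10 members the median log2 difference was 0.14 in ethanol, 0.10 in acetaldehyde and 1.01 in the clone, where the medians over all genes, with no floor, were 0.00, 0.00 and -0.14. At 1.5-fold, 4 members were higher in ethanol, 4 in acetaldehyde and 6 in the clone, where 5.3%, 2.16% and 25.6% of genes were. None was 1.5-fold lower, against 5.11%, 0.411% and 15.2% of genes. COL12A1 was the only member at 2-fold in all 3 comparisons, as were 100 of 10445 genes past the floor in each, or 0.957%. The ethanol and acetaldehyde comparisons share the untreated array, so their values are given side by side and their likeness is not counted as a result. In these monolayers a larger share of cells expressing a collagen and more RNA per cell cannot be told apart.

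**Figure D3:**
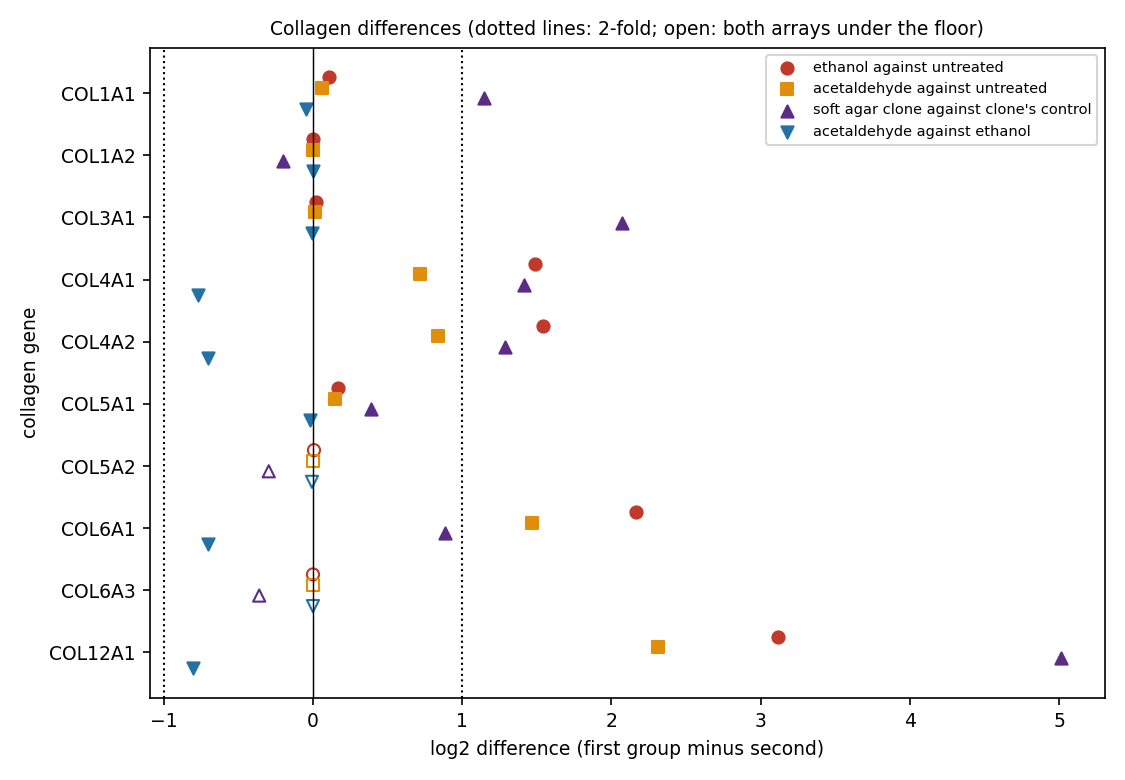
Log2 difference of each collagen gene in 4 comparisons, 1 symbol per comparison; dotted lines mark 2-fold and open symbols mark genes under the floor in both arrays. COL4A1, COL4A2, COL6A1 and COL12A1 are to the right of 0 in ethanol, acetaldehyde and the clone, COL3A1 is far to the right only in the clone (2.07), and all 4 lie between -0.70 and -0.80 for acetaldehyde against ethanol.

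Acetaldehyde was also set against ethanol, at doses that differ in the labels. The 4 members that were higher in ethanol were lower in acetaldehyde than in ethanol by similar amounts. Both comparisons use the same ethanol array, and these 4 were picked for being high in it. A lower value in acetaldehyde is thus favoured beforehand and is given only as a description. COL12A1 had 432 in acetaldehyde against 754 in ethanol, a log2 difference of -0.80. The differences were -0.77 for COL4A1, -0.70 for COL4A2 and -0.70 for COL6A1. No member reached 2-fold, where 1.85% of 11221 genes were 2-fold higher and 0.526% lower in acetaldehyde. At 1.5-fold these 4 members were lower, against 2.22% of genes, and none was higher, against 3.78%. The fibrillar genes past the floor, COL1A1, COL1A2, COL3A1 and COL5A1, had log2 differences between -0.05 and 0.00. COL1A2 had equal values in both arrays.

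The other collagen genes were under the floor in both arrays or stayed under 2-fold. Of 34 listed, 32 could be named in the 3-array table and 33 in the clone's, COL7A1 only there. None was 2-fold higher or lower among 16 past the floor in ethanol, 16 in acetaldehyde and 19 in the clone. Of these 32, 28 had equal values in ethanol and untreated cells, and 30 in acetaldehyde and untreated cells, against 45.9% and 51.8% of all genes. Among all genes past the floor the shares of equal values were 30.7% and 37.9%. In both comparisons 16 of the 32 were under the floor in both arrays. Equal values are therefore not read as a measured lack of change. In the clone the median over the 33 was -0.30, against -0.14 over all genes. COL18A1, a basement membrane collagen named after its values were seen, had 132 in all 3 arrays of the first table and 286 in the clone against 353 in its control.

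Most genes that modify, fold, export and trim collagen chains stayed under 2-fold. Of 31 measured in the first table, 25 passed the floor in ethanol, with 4 higher and 1 lower by 2-fold and 20 under it, where 2.63% of all genes past the floor were higher and 2.44% lower. In acetaldehyde 24 passed, and none reached 2-fold, where 1.03% of genes were higher and 0.0536% lower. In the clone 28 of 32 passed, with 9 higher, 2 lower and 17 under 2-fold, where 14.7% of genes were higher and 5.83% lower. The higher genes of both ethanol and clone include PCOLCE2, described below, which passed the floor only through its brighter array. Raising dim values to the floor left 3 genes of this list higher for ethanol and 8 for the clone. Among all genes, 261 of 11264 and 1472 of 12262 were then higher. The median log2 difference over all measured genes of this list was 0.39 in ethanol, 0.22 in acetaldehyde and 0.54 in the clone, beside 0.00, 0.00 and -0.14 over all genes.

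PLOD2, a lysyl hydroxylase that prepares collagen for stable cross-links, had 1579 in ethanol and 1359 in acetaldehyde, against 707 in untreated cells. In the clone it had 3252 against 296 in its control, 10.97-fold higher, the largest difference of the list. PLOD1, another lysyl hydroxylase, was 2.48-fold higher in ethanol, at 1430 against 577 in untreated cells, and 3.86-fold higher in the clone, at 4000.0 against 1037 in its control. ADAMTS2, the protease that cuts the amino end off procollagen, was 2.17-fold higher in ethanol, at 313 against 144.5 in untreated cells. In the clone it was 5.27-fold higher, at 1097 against 208 in its control. PCOLCE2, an enhancer of the protease at the other end, had 135 in ethanol against 37.2 in untreated cells, at least 1.92-fold higher, and 117 in the clone against 58.3 in its control, at least 1.28-fold higher. In the opposite direction, P3H2, a prolyl 3-hydroxylase that acts on type IV collagen, was 3.32-fold lower in ethanol, at 84.9 against 282 in untreated cells, and 10.28-fold lower in the clone, at 152 against 1559 in its control. P3H2 had 282 in acetaldehyde as well. TMEM38B, an ion channel of the endoplasmic reticulum, was 2.94-fold lower in the clone, at 172 against 507 in its control. SERPINH1, the collagen chaperone HSP47, was named after its values were seen. It was 2.92-fold higher in the clone, at 2190.0 against 751 in its control, and had 1052 in ethanol and 836 in acetaldehyde, against 685 in untreated cells.

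Receptors of collagen were higher in part and lower in part. Of 12 past the floor in ethanol, 4 were 2-fold higher and 3 lower, where 2.63% and 2.44% of all genes were. Of 11 in acetaldehyde 1 was higher and 0 lower, where 1.03% and 0.0536% of genes were. Of 13 in the clone 4 were higher and 2 lower, where 14.7% and 5.83% of genes were. In ethanol, DDR2 and ITGA10 passed the floor only through the array in which they were high. ITGA10 had 84.4 there against 41.9 in untreated cells, at least 1.20-fold higher. The same held for DDR2 in acetaldehyde and for LAIR1 in the clone, which passed only through their higher array. The receptor tyrosine kinases of collagen differed in opposite directions in ethanol. DDR2, the kinase typical of mesenchymal cells, had 271 in ethanol and 157 in acetaldehyde, against 46.3 in untreated cells, at least 3.86 and at least 2.24-fold higher, but 37.5 in the clone and 51.1 in its control, both under the floor. DDR1, the epithelial kinase, was 2.64-fold lower in ethanol, at 360.1 against 950.5 in untreated cells, and 3.65-fold lower in the clone, at 520.5 against 1899 in its control. In acetaldehyde DDR1 had 833. MRC2, an endocytic receptor that takes up collagen, was 2.45-fold higher in ethanol, at 338 against 138 in untreated cells, and 4.11-fold higher in the clone, at 1202 against 293 in its control. LAIR1, an inhibitory receptor for collagen, was 3.59-fold higher in ethanol, at 312 against 86.9 in untreated cells, and at least 3.04-fold higher in the clone, at 279.9 against 87.2 in its control. ADGRG1, an adhesion receptor for type III collagen, was 5.67-fold lower in ethanol, at 131 against 743 in untreated cells, and 4.996-fold lower in the clone, at 109 against 544 in its control. ITGA2, the alpha chain of an epithelial collagen integrin, was 3.38-fold lower in ethanol, at 297 against 1001 in untreated cells, and had 192 in the clone against 222 in its control.

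**Figure D4:**
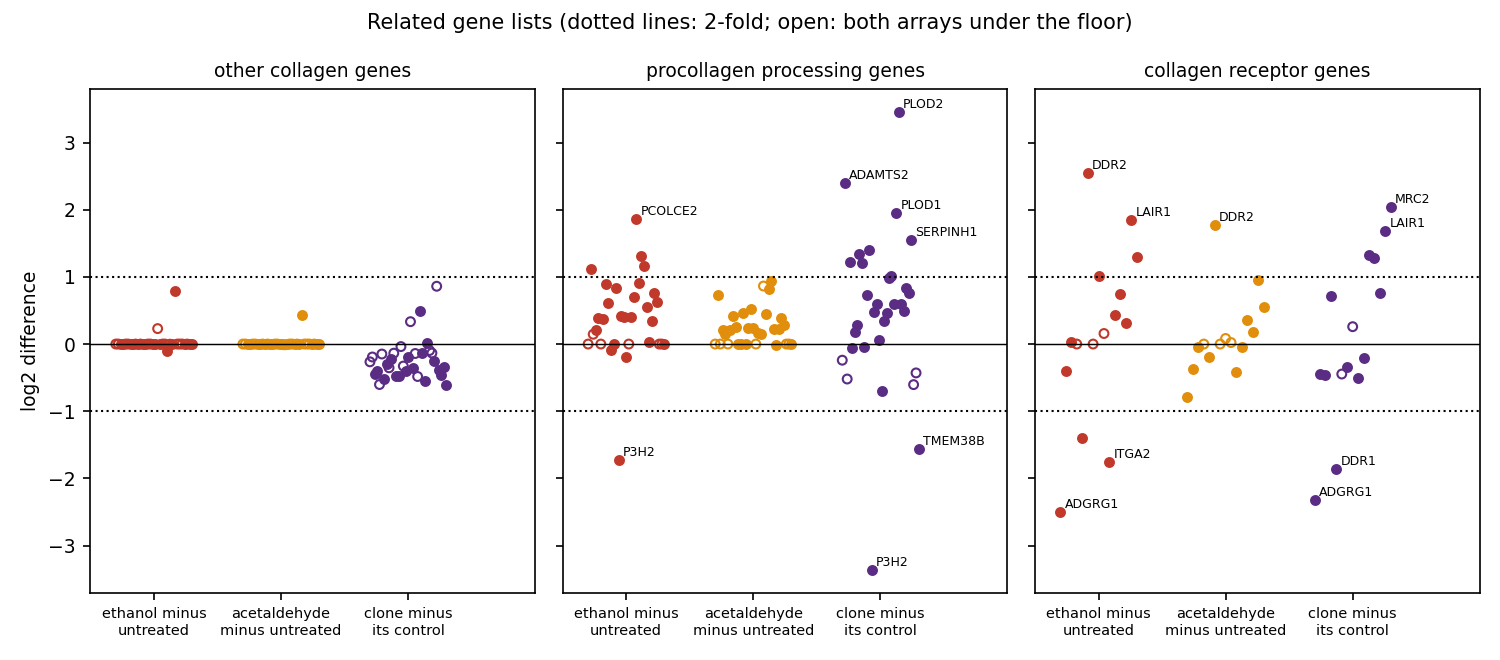
Log2 difference of the other collagen genes, procollagen processing genes and collagen receptor genes, 1 point per gene and comparison; dotted lines mark 2-fold, open points lie under the floor in both arrays, and names are given at 1.5 log2 units or more. No other collagen passes the dotted lines, whereas PLOD2 and P3H2 stand furthest up and down among the processing genes of the clone.

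Most markers of other cells that make collagen were under the floor. Of 12 fibroblast markers that are no collagens, 10 were under it in both arrays compared in ethanol, 9 in acetaldehyde and 6 in the clone. Those at least 2-fold higher were 1 of 2 past the floor in ethanol, 1 of 3 in acetaldehyde and 3 of 6 in the clone, where 2.63%, 1.03% and 14.7% of all genes past the floor were. Each gene counted as higher passed the floor only through the array in which it was high, so the floor itself favours such shares. The summed intensity of the 12 fibroblast markers was 717 in ethanol and 676 in acetaldehyde, against 553 in untreated cells, and 1746 in the clone against 908 in its control. DCN had 88.1 in ethanol and 98.0 in acetaldehyde, against 31.4 in untreated cells. In the clone, FAP had 287 against 32.9 in its control, and likewise DPT had 486 against 70.6 in the control and DCN had 167 against 45.3 in the control. The other markers past the floor there differed by less than 2-fold. PDPN was higher, at 324 against 171 in the control. PDGFRB, at 103 against 136, and MEOX1, at 142.5 against 183, were lower. LUM, OGN, THY1, PDGFRA, PRRX1 and TCF21 were under the floor in all 5 arrays. Of 10 endothelial and pericyte markers, 1 of 2 past the floor was 2-fold higher in ethanol, 0 of 2 in acetaldehyde and 2 of 3 in the clone, beside the same shares of all genes. Their summed intensity was 1402 in ethanol and 1080 in acetaldehyde, against 848 in untreated cells, and 1873 in the clone against 672 in its control. MCAM had 1007 in ethanol against 478 in untreated cells, and 1200 in the clone against 211 in its control. KDR had 275 in the clone against 69.3 in its control, so it too passed the floor only through the clone. VWF, CDH5, TEK and PECAM1 were under the floor in all 5 arrays. The part of such cells in the collagen differences was not tested.

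Across 10445 genes past the floor in all 3 comparisons with a control, those with log2 differences nearest to the values of COL12A1 were IFI44L, DSEL, AOX1, DKK1 and LPAR1. Likeness was the Euclidean distance over the 3 differences, of which the ethanol and acetaldehyde ones share the untreated array. The COL12A1 difference in the clone, 5.02, rests on a control value of 48.8, under the floor, and the distances depend on it. IFI44L, at a distance of 0.69, had 2.94 in ethanol, 1.78 in acetaldehyde and 4.62 in the clone. DSEL was next at 0.79, with 3.33, 3.03 and 4.77. The distances of AOX1, DKK1 and LPAR1 were 0.85, 0.91 and 1.01.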

How the data were processed

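MCF12A RNA from 5 cultures was read on Affymetrix Gene ST arrays, 1 per group. The authors deposited intensity values that are not logged, and per the submitters' processing notes they were made with RMA. The RMA version and genome build are not given in the sources used here. The 2 tables hold 33297 probe sets each.

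Log2 was taken of each value, probe sets with exactly 1 symbol in an annotation of each array design were named, and a gene was read from its brightest probe set. Differences were taken within a table and counted at 2-fold, where the brighter array reached the median of its table. Where the dimmer value lay under that floor, the floor replaced it and the fold is written as at least that ratio. With 1 array per group no test was possible. The 7 gene lists hold 124 genes by current symbol, CTAGE5 as MIA2. The members and lists were chosen with earlier results of these data known. Genes named by rule were all members, any other collagen past 2-fold (there was none), up to 6 processing and 6 receptor genes and up to 4 genes of each marker list furthest past 2-fold, and the 5 genes nearest to COL12A1. COL4A5, COL6A2, COL18A1, SERPINH1, ITGA10, KRT5, KRT8, PDPN, PDGFRB, MEOX1 and the markers named as under the floor were added after their values were seen. Calculations were tested on simulated data with independent noise in each array, which did not copy the equal values of the first table. Changes were simulated only in genes with a mean above the floor, so that check does not cover dimmer genes. Python 3.11.15, pandas 2.3.3, numpy 2.4.6 and statsmodels 0.14.6 were used. Alternatives covered the floor, fold, centring, repeated quantile normalisation, a lowess correction, raising dim values to the floor and averaging probe sets.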

Additional observations from a re-analysis of the deposited data

How the results depend on the processing

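No paired analysis was possible because each group is 1 array. No member changed direction past 2-fold under any alternative. The counts of members 2-fold higher were 3 to 4 in ethanol, 2 in acetaldehyde and 5 to 6 in the clone over all settings that kept the 2-fold threshold. At 1.5-fold, 4 members were higher in acetaldehyde than in untreated cells and 4 lower in acetaldehyde than in ethanol. The median of the members past the floor in ethanol was 0.83, against 0.14 with no floor, 0.14 with the floor at the 25th percentile and 2.17 at the 75th, where fewer genes are left. In acetaldehyde it was 0.43, and 1.89 at the 75th percentile. COL12A1 in the clone had a log2 difference of 4.10 once values under the floor were set equal to it. The medians shift because the floor sets which members are counted, and COL12A1 because the floor replaces its control value of 48.8. Of all genes past the floor, 5.3% were 1.5-fold higher in ethanol, 2.16% in acetaldehyde and 25.6% in the clone. Lower by 1.5-fold were 0.411% in acetaldehyde, 15.2% in the clone and 2.22% in acetaldehyde against ethanol. At 1.5-fold the other collagens counted 1 higher in ethanol and 1 lower in the clone. The processing genes then counted 11 higher in ethanol, 3 in acetaldehyde and 16 in the clone, and 1 lower in acetaldehyde than in ethanol, as with quantile normalisation once more, where 1 was also lower. The receptors counted 2 higher and 1 lower in acetaldehyde than in untreated cells and 4 lower in acetaldehyde than in ethanol, and with the floor at the 75th percentile 0 were higher in acetaldehyde. At 2-fold, with values under the floor raised to it, 3 processing genes and 3 receptors were higher in ethanol, in place of 4 and 4. In that setting 261 of 11264 genes were higher. Values under the floor in at least 1 array (COL4A1, COL5A2, COL6A3, COL12A1) or near it in untreated cells (COL1A2, COL4A2, COL12A1) limit what can be seen of these genes, and the floor is not a measured background.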
